A study of Mus musculus with 6 samples.

Results

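Head-to-head overlapping gene pairs are pairs of genes on opposite strands of 1 chromosome whose 5′ ends run into each other. They were found from the exon coordinates of the deposited count table alone, with no use of the counts. A pair was kept when its genes shared at least 1 exonic base, and when the gene on the minus strand began before the gene on the plus strand and ended inside it. This gave 1826 pairs of 5402 opposite-strand pairs sharing exonic bases, with 3585 member genes, or 6.29% of the 57010 genes in the table. The other overlapping pairs were 1583 tail-to-tail pairs, in which the 3′ ends overlap, and 1993 nested pairs, in which 1 gene lies within the span of the other. RNA had been sequenced from 6 wild-type mouse samples, 3 of embryonic stem cells (ESC) and 3 of primary cortical neurons taken on embryonic day 16.5 and grown for 7 days in vitro. Neither group carried a transgene or a treatment per the labels, and the library names of neuron replicates 2 and 3 hold the unexplained word empty. The labels do not say whether the replicates of a group were separate cultures or litters, so p-values measure only the spread between these libraries.

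When 2 genes start close together and point away from each other, 1 stretch of DNA can serve as promoter for both; such bidirectional promoters are often rich in CG dinucleotides and poor in TATA boxes, and they are common among genes for DNA repair, replication and basic metabolism. Many promoters of protein-coding genes also give rise to a non-coding RNA on the opposite strand, which may be annotated as antisense, as a bidirectional promoter RNA, or under a provisional name beginning with Gm or ending in Rik. In the overlapping case the first exons of the partners are complementary to each other, and a read from the shared bases can be placed on 1 gene only if its strand is known.

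The counting tool and its strand setting are not given in the sources used here, so for every pair the reads of a gene and those of its partner cannot be told apart, and each value is a count as assigned in the table. Were the setting the reverse of the library's, a count printed for a gene would stem from RNA of the other strand. Such a count would belong to the partner only where exons are shared. Each statement on which gene of a pair was the higher would then need a new count. mt-Nd6, the only minus-strand gene of the 13 mitochondrial mRNA genes and in most tissues one of the scarcest, held 82.7%, 68.3% and 86.3% of their counts in ESC and 35.6%, 36.8% and 32.9% in neurons. This limit holds for every gene name and direction given here, the marker lists included. Total counts were 1368303 to 1775055 in the ESC libraries and 513425 to 624792 in the neuron libraries. A gene with 3 counts, the floor chosen here, stood at 2.26 to 2.90 CPM (counts scaled to the normalised library total) in ESC and at 3.92 to 4.81 CPM in neurons. Lower levels rest on fewer than 3 counts and are uncertain. The batch label is the same split as the group, so the batch and the cell type cannot be told apart. In such bulk samples fewer cells of a type and less RNA per cell cannot be told apart either.

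Counts on marker lists of the labelled cell types and of other cells are given as assigned in the table. Since the strand setting is not known, they cannot check the labels. The 15 pluripotency genes held 0.0181% to 0.0241% of counts in ESC and 0.000719% to 0.00128% in neuron libraries. Pou5f1, Nanog, Zfp42, Esrrb, Tfcp2l1, Dppa3, Dppa5a, Utf1 and Fgf4 were at 0 in every neuron library, and 7 of 7 tested list genes were lower in neurons. The 14 neuronal genes held 0.0164% to 0.0208% in ESC and 0.135% to 0.162% in neuron libraries, with 2 genes higher and 2 lower of 5 tested, and Gap43, Rbfox3 and Snap25 at 0 in ESC. The lists of other cells held these shares in neuron libraries: 0.00565% to 0.00898% for 7 astrocyte genes, 0.00485% to 0.00736% for 7 oligodendrocyte genes, 0.0158% to 0.0178% for 5 microglial genes, 0.000180% to 0.000390% for 5 fibroblast genes and 0% to 0.000359% for 3 endothelial genes. In ESC libraries they held 0.000271% to 0.000438%, 0.00180% to 0.00223%, 0.0150% to 0.0201%, 0% to 7.31e-05% and 5.63e-05% to 0.000406%. In the neuron libraries Aldh1l1, Tmem119, Col1a1 and Lum were at 0; in the ESC libraries these were Aqp4, S100b, Slc1a2, Slc1a3, Cspg4, Pdgfra, P2ry12, Tmem119, Col1a2, Dcn, Lum and Cdh5. Of these lists, 1 astrocyte gene of 1 tested was higher in neurons, 1 oligodendrocyte gene was higher and 1 lower of 2 tested, and 2 microglial genes of 2 were lower. Beside all list counts in this paragraph, 47% of all tested genes were higher in neurons and 38.6% lower. The part of other cells in the results below was not tested.

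The promoters of 3 pairs show what the arrangement looks like in DNA. Mcm7, a subunit of the replicative helicase, lies opposite Ap4m1, a subunit of an adaptor complex that sorts cargo at the Golgi. Fat4, a giant atypical cadherin, lies opposite the non-coding gene C230034O21Rik, and the protein hydroxylase gene Jmjd6 lies opposite Mettl23, a methyltransferase gene. Each window below runs from 250 bases before the RefSeq start to 50 bases from it, so that the start follows base 250, on the strand of the gene named (RefSeq, assembly GRCm38.p6). Capitals mark the bases that lie inside the partner gene. The windows are Mcm7 at chr5:138171834-138172133 on the minus strand, Ap4m1 at chr5:138171771-138172070 on the plus strand, C230034O21Rik at chr3:38886912-38887211 on the minus strand, Fat4 at chr3:38886690-38886989 on the plus strand, Jmjd6 at chr11:116843400-116843699 on the minus strand and Mettl23 at chr11:116843265-116843564 on the plus strand.
Mcm7: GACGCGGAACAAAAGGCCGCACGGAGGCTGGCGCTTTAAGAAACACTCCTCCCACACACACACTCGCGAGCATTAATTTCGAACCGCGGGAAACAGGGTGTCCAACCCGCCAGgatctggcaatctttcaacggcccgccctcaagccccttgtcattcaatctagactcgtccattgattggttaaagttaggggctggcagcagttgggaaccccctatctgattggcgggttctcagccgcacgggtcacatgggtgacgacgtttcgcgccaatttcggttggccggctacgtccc
Ap4m1: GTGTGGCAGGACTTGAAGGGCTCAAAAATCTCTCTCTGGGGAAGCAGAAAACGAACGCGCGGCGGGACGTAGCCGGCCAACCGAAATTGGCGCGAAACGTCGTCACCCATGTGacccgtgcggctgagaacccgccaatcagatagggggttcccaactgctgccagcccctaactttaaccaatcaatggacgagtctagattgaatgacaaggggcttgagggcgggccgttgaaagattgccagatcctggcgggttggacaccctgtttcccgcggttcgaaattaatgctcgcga
C230034O21Rik: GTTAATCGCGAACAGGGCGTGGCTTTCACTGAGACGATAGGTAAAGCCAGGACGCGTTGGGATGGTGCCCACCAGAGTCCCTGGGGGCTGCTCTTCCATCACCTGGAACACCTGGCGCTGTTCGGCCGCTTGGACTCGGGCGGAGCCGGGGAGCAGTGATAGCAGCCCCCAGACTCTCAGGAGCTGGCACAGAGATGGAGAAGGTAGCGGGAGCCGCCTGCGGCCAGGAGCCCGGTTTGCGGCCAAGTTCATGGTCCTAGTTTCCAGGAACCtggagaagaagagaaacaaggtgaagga
Fat4: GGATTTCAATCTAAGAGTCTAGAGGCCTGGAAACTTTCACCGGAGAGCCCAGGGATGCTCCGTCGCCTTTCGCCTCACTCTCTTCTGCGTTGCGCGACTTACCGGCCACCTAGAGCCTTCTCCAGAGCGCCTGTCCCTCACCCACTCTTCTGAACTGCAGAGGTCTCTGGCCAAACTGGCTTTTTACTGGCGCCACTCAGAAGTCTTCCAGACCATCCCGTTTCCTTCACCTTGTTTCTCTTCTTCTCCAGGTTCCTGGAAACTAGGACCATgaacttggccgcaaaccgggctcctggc
Jmjd6: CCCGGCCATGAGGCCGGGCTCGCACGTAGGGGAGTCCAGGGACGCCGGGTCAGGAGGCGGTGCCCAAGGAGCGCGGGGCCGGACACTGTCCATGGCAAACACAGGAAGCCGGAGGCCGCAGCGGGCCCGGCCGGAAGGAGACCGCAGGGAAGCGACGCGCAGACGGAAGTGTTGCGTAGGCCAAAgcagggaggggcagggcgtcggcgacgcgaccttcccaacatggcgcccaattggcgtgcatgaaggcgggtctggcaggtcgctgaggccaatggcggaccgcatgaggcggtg
Mettl23: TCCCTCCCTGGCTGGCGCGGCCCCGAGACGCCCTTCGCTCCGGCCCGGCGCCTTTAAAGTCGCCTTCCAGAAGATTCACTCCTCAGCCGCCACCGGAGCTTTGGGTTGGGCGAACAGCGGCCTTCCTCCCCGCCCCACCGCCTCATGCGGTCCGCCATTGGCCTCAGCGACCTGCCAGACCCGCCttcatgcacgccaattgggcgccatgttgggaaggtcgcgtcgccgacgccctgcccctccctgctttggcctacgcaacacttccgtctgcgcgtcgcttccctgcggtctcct
In RefSeq the starts of Mcm7 and Ap4m1 lay 137 bases apart without overlap, and 113 bases of each window were inside the partner. The starts of Jmjd6 and Mettl23 were 65 bases apart, with 185 bases inside the partner. The first exons of Fat4 and C230034O21Rik overlapped by 22 bases at the listed starts, so that 272 of 300 bases in each window belonged to the partner. The Mcm7 window held 24 CG dinucleotides and the Jmjd6 window 33, against 13 in that of Fat4. CCAAT, read on both strands, occurred 3 times in each of the Mcm7, Ap4m1, Jmjd6 and Mettl23 windows and 0 times in the windows of Fat4 and its partner. TATAAA occurred in 0 of these 6 windows.

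Over all members, 2106 of 3585 genes matched a RefSeq window by symbol, with 2808 windows. Both partners matched in 677 pairs. The nearest listed starts overlapped in 276 of these and did not in 401, and they lay within 300 bases of each other in 336 pairs and within 1000 bases in 482. The table's own gene models gave a median of 199 shared exonic bases (quartiles 103.25 and 372, range 1 to 2896). Windows of members differed in letter content from the 32851 windows of all genes. The median was 6.0 CG dinucleotides per 100 bases in member windows and 8.33 in the 672 windows of pairs with starts within 300 bases, against 2.33 in all windows. The GC-box core GGGCGG was present on either strand in 54.2% of member windows, 66.2% of the close-pair windows and 35.7% of all windows. TATAAA went the other way, with 8.05%, 4.91% and 13.6%, while CCAAT stood at 34.9%, 34.1% and 37.4%. CGCATGCG was found in 2.31%, 3.87% and 1.87% of these windows, and the YY1 motif, searched as 1 fixed string, in 1.78%, 3.42% and 0.852%. None of these 5 motifs contains another, a match is a description of letters only, and these shares were not tested.

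By annotation, 499 pairs joined 2 protein-coding genes, 1146 joined 1 protein-coding gene to a gene of another or no given type, and 181 held no protein-coding gene. A Gm or Rik gene was present in 1116 pairs, in 968 of them as exactly 1 member and in 148 as both members, and 710 pairs had none. Of the 3585 members 2109 were protein-coding, 616 antisense, 216 lincRNA, 168 processed transcripts, 136 of the type to be experimentally checked (TEC) and 69 bidirectional promoter lncRNA. Another 166 had no type in the annotation used. In 1109 pairs neither gene shared exonic bases with any other opposite-strand gene, and 59 members belonged to more than 1 head-to-head pair, up to 8. At least 1 count was seen for 3281 members, 304 were at 0 in all libraries, and 67 pairs were at 0 for both genes.

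Head-to-head members held a smaller share of all counts in neurons than in ESC. The ESC libraries had shares of 39.98%, 39.67% and 40.08%, and the neuron libraries 27.72%, 26.62% and 26.81%. The groups did not overlap, at 39.9% ± 0.21 and 27.0% ± 0.59 (SD, n = 3 each), a difference of −12.9 percentage points (exact two-sided permutation p = 0.1, the smallest that 3 against 3 libraries can give). For tail-to-tail members the share was 42.6% ± 0.56 in ESC and 44.0% ± 0.85 in neurons (exact permutation p = 0.2), and for nested members 27.1% ± 0.22 and 30.2% ± 0.25 (exact permutation p = 0.1). A gene can belong to several arrangements, so these shares overlap. The head-to-head share minus the tail-to-tail share was −2.70 ± 0.756 percentage points in ESC and −16.9 ± 1.44 in neurons, again without overlap (exact permutation p = 0.1). The 100 head-to-head members with most counts in a library accounted for 24.2% ± 0.49 of all counts in ESC and 14.1% ± 0.43 in neurons. Within the counts of head-to-head members, protein-coding genes held 41.5% ± 0.09 in ESC and 48.9% ± 0.88 in neurons, antisense genes 28.5% ± 0.97 and 28.4% ± 0.57, and TEC genes 12.4% ± 0.91 and 7.79% ± 0.20.

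**Figure D1:**
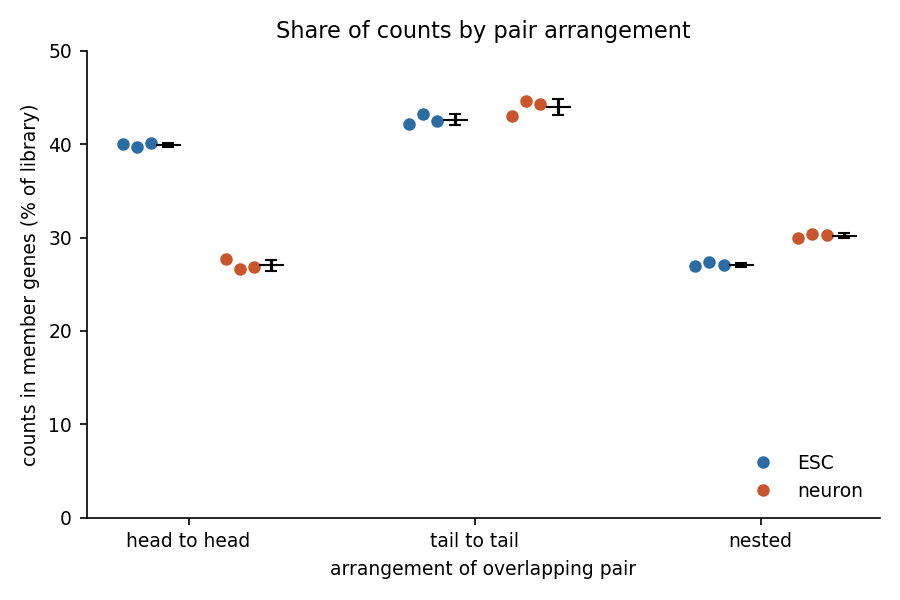
Percent of all counts in a library (y axis) assigned to member genes of head-to-head, tail-to-tail and nested pairs (x axis), with 1 point per library and the mean and SD (n = 3) as a black bar beside each group of points. The head-to-head points lie between 39.67% and 40.08% in ESC and between 26.62% and 27.72% in neurons, while the tail-to-tail points lie between 42.1% and 44.6% over both groups.

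Of the 3585 members, 1764 passed the filter on low counts and were tested; 1821 were not. With edgeR's quasi-likelihood test at a Benjamini-Hochberg adjusted p under 0.05, 1487 members (84.3%) differed between neurons and ESC, near the 85.6% called among all 7150 tested genes. Higher in neurons were 603 members (34.2%), against 47% of all tested genes. Lower in neurons were 884 members (50.1%), against 38.6% of all tested genes. The median log2 fold change of tested members, neuron over ESC, was −0.50, beside 0.37 over all tested genes. Requiring a mean of at least 10 counts left 556 members higher and 815 lower of 1636 (median −0.56), beside 2479 and 2500 of all 5971 genes then tested (median −0.01). Setting the 90 tested members with a group at 0 to their lower bound left that median at −0.50. The direction depended on scaling: with total counts in place of the trimmed mean of M-values (TMM), the median of all genes moved up by 0.73, the members' median was 0.23, and 795 members were higher and 714 lower. The members' median stayed below that of all genes under both scalings, since all genes then had 1.10.

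Of the 3 classes of pairs by their number of protein-coding genes, those with 2 had the lowest median. Among the 624 tested members of pairs with 2 protein-coding genes, 145 were higher in neurons and 363 lower, and their median log2 fold change was −1.11. Of all 4223 tested protein-coding genes 1844 were higher and 1657 lower, with a median of 0.20. With total counts 227 of the 624 members were higher and 299 lower, with a median of −0.38. Among members of pairs with exactly 1 protein-coding gene, 430 were higher and 501 lower of 1092 tested (median −0.23, beside 0.37 for all genes), but 540 higher and 397 lower with total counts. In the 710 pairs free of Gm and Rik genes, 195 members were higher and 467 lower of 811 tested (median −1.01), against 387 and 402 of 914 in pairs with exactly 1 such gene (median 0.01). With total counts these became 293 and 378, and 478 and 326. The differences between these classes were not tested.

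Where both partners were called, the genes of most pairs changed in the same direction. Both genes were tested in 466 pairs, 1 gene in 875 and neither in 485. In 311 of the 466 pairs both genes were called. Of these 220 changed the same way, 73 higher and 147 lower in neurons, and 91 changed in opposite ways; in 139 pairs 1 gene was called and in 16 neither. Same-direction calls thus made up 47.2% of pairs with both genes tested, against 43% over all 1536 overlapping pairs, and opposite calls 19.5% against 25.3%. Of the pairs with both genes called, 70.7% went the same way head to head, 57.7% tail to tail and 62.9% nested, differences that were not tested. With total counts the 220 pairs became 214, of which 115 were higher and 99 lower, and the opposite pairs became 113. With a mean of at least 10 counts, 42 of 404 pairs were higher and 132 lower for both genes, and 99 were opposite. Across the 466 pairs, which share libraries and in part genes and reads, Pearson's r of the partners' log2 fold changes was 0.56 and Spearman's rho 0.41. It was 0.21 across 684 tail-to-tail and 0.48 across 386 nested pairs. In the pairs whose genes had no other opposite-strand partner, r was 0.68, and 127 of 161 pairs with both genes called had both higher or both lower (78.9%). The median of shared bases was 287.5 in same-direction and 213 in opposite-direction pairs.

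**Figure D2:**
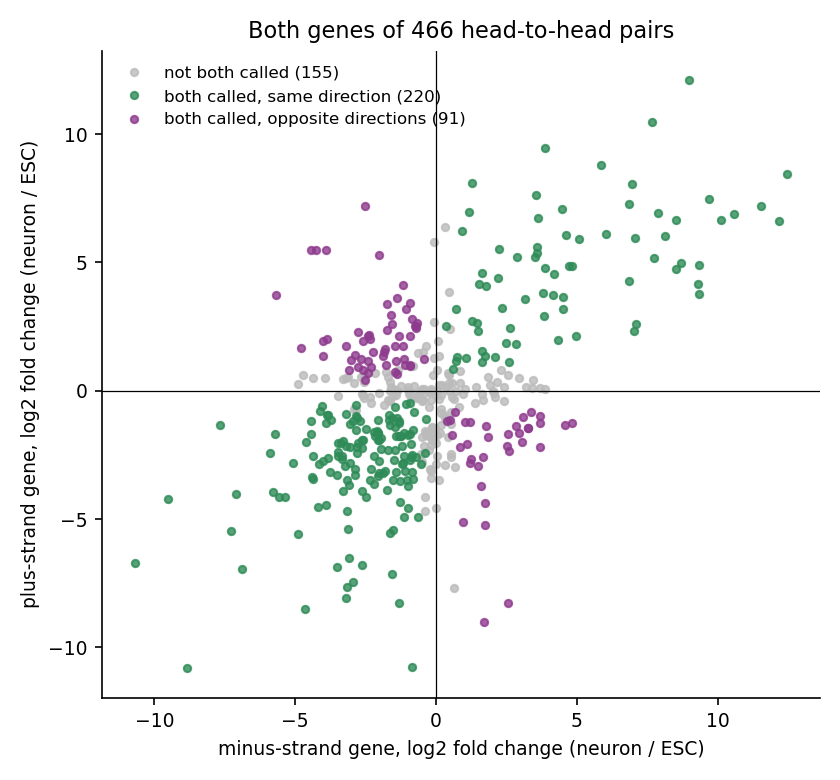
Log2 fold change (neuron over ESC) of the minus-strand gene (x axis) against that of the plus-strand gene (y axis) for the 466 head-to-head pairs with both genes tested, 1 point per pair. The 220 pairs called in the same direction (green) fill the lower left and upper right, the 91 called in opposite directions (purple) the other quadrants, and grey points are pairs not called for both genes.

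The pairs with the most counts in ESC included genes of metabolism and protein synthesis, and in each the counts sat almost wholly on 1 gene. Ftl1 encodes the ferritin light chain, an iron store. It had counts of 190, 80 and 157 in ESC and 4, 4 and 2 in neurons, while Gm10252 opposite it (355 shared bases, chromosome 7) had counts of 42149, 24581 and 35756 in ESC and 5630, 4794 and 4790 in neurons. Both were lower in every neuron library than in any ESC library. Per kilobase of exon, Gm10252 stood at 35199 CPM in ESC and Ftl1 at 90.2. The log2 change was −4.61 (SE 0.35, edgeR adjusted p = 3.42e-14) for Ftl1 and −1.99 (SE 0.10, edgeR adjusted p = 6.93e-19) for Gm10252.

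Mt2, a metal-binding metallothionein, had counts of 47, 30 and 29 in ESC and 7, 0 and 1 in neurons, against 26615, 20132 and 23527 and then 2137, 1093 and 1293 for Gm45774 opposite it. Both genes were lower in neurons, by log2 fold changes of −2.93 (SE 0.49, edgeR adjusted p = 1.33e-06) and −3.23 (SE 0.18, edgeR adjusted p = 3.85e-08). The ribosomal protein gene Rpl30 had counts of 35, 26 and 25 in ESC and 3, 3 and 2 in neurons, and D730044K07Rik opposite it had 14890, 11045 and 12751 and then 559, 485 and 494. The ESC and neuron libraries of both did not overlap (edgeR adjusted p = 1.26e-06 and 4.99e-30), and the counts of Rpl30 had a ratio of 6.39 (95% exact binomial interval 3.10 to 15.3, counting error only). Gpx1, a glutathione peroxidase that removes hydrogen peroxide, had counts of 23, 15 and 24 in ESC and 1, 1 and 4 in neurons. The gene ENSMUSG00000121068.1 opposite it, sharing 1210 exonic bases, had 14844, 10601 and 12732 and then 400, 356 and 339. In Gm13496/Wdr38, which share only 8 bases, Gm13496 had counts of 1, 2 and 1 in ESC and 0 in neurons, and Wdr38, a WD-repeat gene, had 24539, 18150 and 20849 in ESC and 1212, 1030 and 1039 in neurons. Wdr38 also shares bases with another gene of the opposite strand. Fam57b had counts of 14046, 8705 and 11807 in ESC and 712, 584 and 562 in neurons, and its partner ENSMUSG00000030695.17 had 168, 78 and 124 and then 12, 8 and 4. Fam57b fell by 3.46 on the log2 scale (SE 0.10, edgeR adjusted p = 9.54e-28), and the change of its partner was −3.17 (SE 0.30, edgeR adjusted p = 2.91e-12).

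In neurons the largest count of any head-to-head member belonged to Ccdc107, a coiled-coil protein gene (ENSMUSG00000028461.13, chromosome 4, 43492900 to 43495921, plus strand; positions of genes are those of the table, for which the submitters' processing notes name GRCm39). It had counts of 18, 10 and 5 in ESC and 31881, 24555 and 21631 in neurons, a log2 change of 11.93 (SE 0.17, edgeR adjusted p = 5.81e-31). Its opposite-strand partners are 2 identifiers that both carry the symbol of Rmrp, the RNA of the RNase MRP ribonucleoprotein, and share 124 bases with it. Both were at 0 in all 6 libraries. They lie on the same strand at nearly the same positions, 43492788 to 43493058 and 43492783 to 43493063. How reads over 2 genes of the same strand were counted is not given, so their 0 counts cannot be read as absence of RNA. With the strands exchanged, the counts and log2 change of Ccdc107 would stem from minus-strand RNA, the strand of both Rmrp identifiers. They would belong to Rmrp only over the 124 shared bases. How many counts lie there is not given. Gm26658, opposite the synaptotagmin gene Syt4, had counts of 7, 5 and 3 in ESC and 1595, 1664 and 1353 in neurons, while Syt4 had 0 in ESC and 3, 3 and 1 in neurons. Gm26953, opposite the neuronal lncRNA gene Miat with 2434 shared bases, had 1, 2 and 4 and then 1533, 1348 and 1363, while Miat had 3, 2 and 0 and then 5, 2 and 6. The log2 fold changes were 8.97 (SE 0.18, edgeR adjusted p = 9.12e-33) for Gm26658 and 9.90 (SE 0.20, edgeR adjusted p = 1.17e-32) for Gm26953, and neither Syt4 nor Miat had enough counts to be tested.

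The members with the lowest fold changes included partners of genes known from pluripotent cells. Where a group was at 0 throughout, the fold is a lower bound set against 3 counts in each of its libraries. For a tested gene with some counts but no more than 3 in any library of the lower group, the ratio of the normalised counts is given with its 95% exact binomial interval, which covers counting error only. Lin28a, an RNA-binding protein that blocks let-7 microRNA maturation in pluripotent cells, had counts of 16, 9 and 10 in ESC and 1, 1 and 0 in neurons. Gm13061, sharing 234 bases with it, had 969, 773 and 716 and then 0 in each neuron library, at least 161-fold lower (edgeR adjusted p = 8.96e-27). Sall4, a zinc-finger factor of the pluripotency network, had counts of 7, 14 and 9 in ESC and 0, 2 and 0 in neurons, and Gm14261 opposite it had 465, 573 and 316 and then 0 in each, at least 90.2-fold lower (edgeR adjusted p = 2.96e-06). Lefty2, a secreted inhibitor of Nodal signalling, had counts of 100, 50 and 75 in ESC and 0, 0 and 1 in neurons, a ratio of 134 (interval 23.8 to 5306, edgeR adjusted p = 1.83e-13). Its partner ENSMUSG00000121043.1 had 4767, 3373 and 3761 and then 2, 0 and 2, a ratio of 1769 (interval 691 to 6492). ESC and neuron libraries did not overlap for Lin28a, Sall4 and Lefty2 either; for their partners this was part of the choice.

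The other members with the lowest fold changes were BC065397, 2410017I17Rik and Gm20478. BC065397 had counts of 1353, 1209 and 1207 in ESC and 0, 0 and 1 in neurons, a ratio of 2240 (interval 402 to 88516, edgeR adjusted p = 2.34e-29). Its partner Morf4l2, a chromatin protein of the NuA4 acetyltransferase complex, had counts of 79, 31 and 62 in ESC and 17, 19 and 19 in neurons. Morf4l2 changed far less, with a log2 change of −0.87 (SE 0.28, edgeR adjusted p = 0.00479), which lost its call with total counts (−0.14, edgeR adjusted p = 0.648) and with a filter on a mean of at least 10 counts (−0.51, edgeR adjusted p = 0.0988). The lincRNA gene 2410017I17Rik had counts of 927, 686 and 809 in ESC and 0 in all neuron libraries, at least 159-fold lower. Its partners Gm10499 and ENSMUSG00000121510.1 had 3 to 9 counts in ESC and 0 in neurons. Gm20478 had counts of 302, 281 and 261 in ESC and its partner Gm8909 had 78, 56 and 80, both with 0 in neurons, at least 55.7-fold and 14.0-fold lower (edgeR adjusted p = 3.58e-21 and 1.15e-13).

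The members with the highest fold changes included partners of neuronal and cell adhesion genes. C230034O21Rik (ENSMUSG00000086181.2, chromosome 3, 38928719 to 38942408, minus strand), whose promoter window is printed above with that of Fat4, had 0 counts in ESC and 601, 524 and 452 in neurons, at least 291-fold higher (edgeR adjusted p = 1.42e-28). Fat4 also had 0 in ESC and 35, 36 and 26 in neurons, at least 17.9-fold higher (edgeR adjusted p = 1.11e-13). Per kilobase C230034O21Rik stood at 269 CPM in neurons and Fat4 at 2.74. Arpp21, a cAMP-regulated phosphoprotein of neurons, had 0 in ESC and 51, 48 and 42 in neurons, and 2900079G21Rik opposite it 0 and then 493, 360 and 378. They were at least 26.1-fold and 227-fold higher (edgeR adjusted p = 7.99e-16 and 3.25e-27). Pcdh7, a protocadherin, had 0 in ESC and 7, 11 and 9 in neurons, and 4932441J04Rik, sharing 2235 bases with it, 0 and then 556, 369 and 364, at least 5.07-fold and 236-fold higher (edgeR adjusted p = 8.10e-09 and 8.27e-27).

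Kcna6, a voltage-gated potassium channel gene, differed from these in having almost no counts in either group, with 1, 0 and 1 in ESC and 2, 0 and 1 in neurons. Gm26673, sharing 2355 bases with it, had 0 in ESC and 522, 413 and 421 in neurons, at least 250-fold higher (edgeR adjusted p = 7.80e-28). The lincRNA genes Gm26803 and C130071C03Rik both rose: Gm26803 from 0 in each ESC library to 278, 283 and 256, and C130071C03Rik from 1, 0 and 0 to 46, 34 and 49 (edgeR adjusted p = 3.17e-25 and 4.49e-15). The ratio for C130071C03Rik was 217 (interval 38.3 to 8637).

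In 91 pairs the partners changed in opposite ways, and the 6 with the largest smaller change are described here. Atf5 (ENSMUSG00000038539.16, chromosome 7, 44461680 to 44466082, minus strand), a stress-responsive transcription factor, had counts of 1681, 1624 and 1304 in ESC and 36, 52 and 39 in neurons. Il4i1 opposite it (ENSMUSG00000074141.14, chromosome 7, 44465811 to 44490233, plus strand), an L-amino acid oxidase known from immune cells, had 2, 4 and 2 and then 103, 53 and 73. The log2 fold changes were −4.43 (SE 0.15, edgeR adjusted p = 1.55e-23) and 5.50 (SE 0.36, edgeR adjusted p = 9.36e-17). The share of the pair's counts on Atf5 went from 99.8% ± 0.07 to 36.7% ± 11.9 (SD, n = 3 each). Atf5 and Il4i1 each also share exonic bases with another opposite-strand gene. Their nearest RefSeq starts lay 19629 bases apart without overlap. Plppr3, a membrane protein of the phospholipid phosphatase-related family found in neurons, had counts of 6292, 5267 and 5136 in ESC and 275, 209 and 181 in neurons. Prtn3, the neutrophil protease proteinase 3, had 2, 0 and 0 and then 12, 28 and 24, a ratio of 53.8 (interval 14.3 to 454). Their edgeR adjusted p were 1.01e-28 and 1.12e-09. Plppr3 and Prtn3 share 159 exonic bases, and their nearest RefSeq starts lay 5032 bases apart without overlap. Plppr3 also shares bases with another opposite-strand gene.

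Pycard, the inflammasome adaptor ASC, had counts of 6, 31 and 10 in ESC and 57, 58 and 52 in neurons, and Gm45205 opposite it 1527, 893 and 1346 and then 4, 2 and 1. Pycard rose by 2.55 on the log2 scale (SE 0.41, edgeR adjusted p = 3.67e-05) and Gm45205 fell by 8.25 (SE 0.24, edgeR adjusted p = 1.06e-26). ESC replicate 2 was the highest ESC library for Pycard and the lowest for Gm45205. Fbxo7, an F-box subunit of ubiquitin ligases, had counts of 5, 7 and 6 in ESC and 486, 654 and 451 in neurons, and A230060F14Rik opposite it 233, 171 and 202 and then 29, 18 and 16. Their log2 fold changes were 7.19 (SE 0.22, edgeR adjusted p = 6.25e-25) and −2.51 (SE 0.21, edgeR adjusted p = 6.39e-14).

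Nfkb2, which encodes the NF-kB subunit p100, had counts of 40, 41 and 28 in ESC, almost the same as its bidirectional promoter lncRNA AC114539.1 with 40, 40 and 29. In neurons Nfkb2 had 300, 312 and 247 and AC114539.1 had 0, 0 and 1. Nfkb2 also shares bases with another opposite-strand gene. The log2 fold change of Nfkb2 was 3.72 (SE 0.17, edgeR adjusted p = 1.21e-21), and the ratio for AC114539.1 was 64.8 in favour of ESC (interval 11.4 to 2582). Myh14, a non-muscle myosin heavy chain, had counts of 26, 17 and 30 in ESC and 0, 0 and 2 in neurons, while 2310016G11Rik had 0, 1 and 0 and then 17, 12 and 10 (edgeR adjusted p = 3.22e-07 and 1.63e-09). The ratios were 21.7 in favour of ESC (interval 5.80 to 183) and 65.6 in favour of neurons (interval 11.1 to 2657). In these 6 pairs ESC and neuron libraries did not overlap for any gene, as the panels for single pairs show. The pairs were chosen for calls and large changes of both genes, so this is no further evidence.

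**Figure D3:**
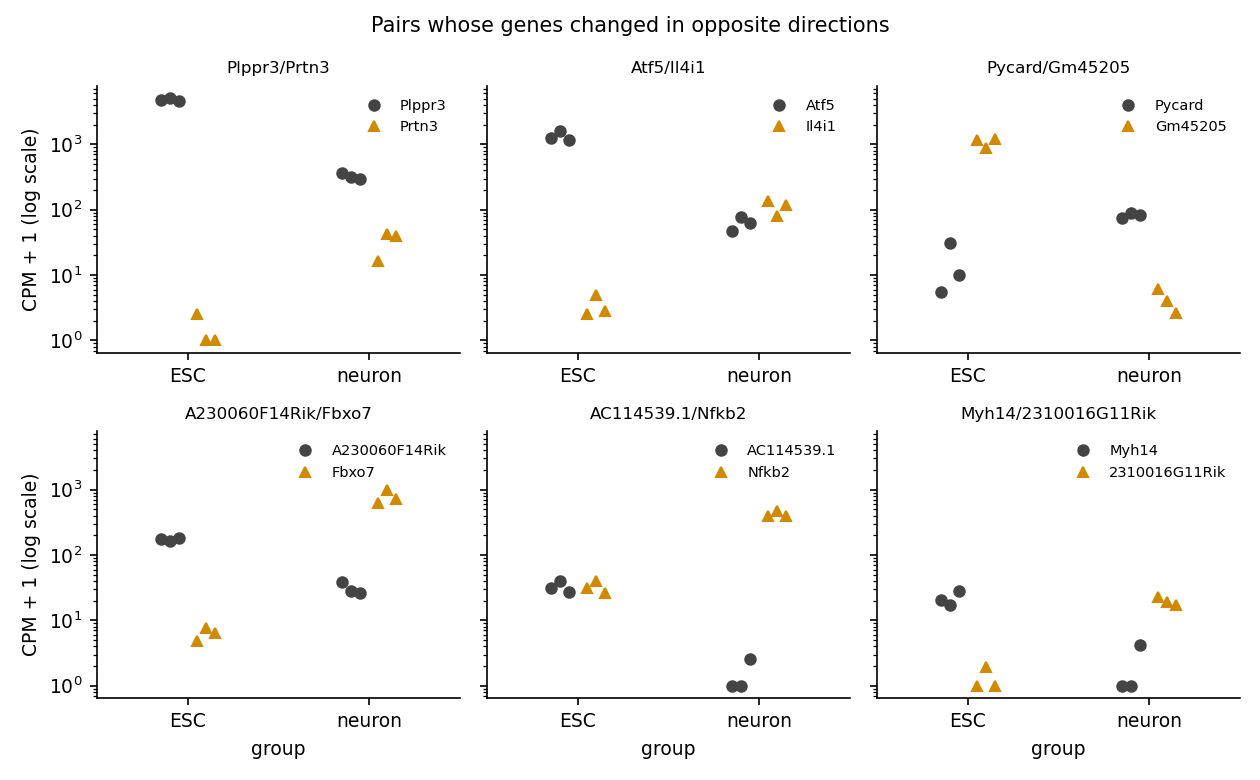
CPM plus 1 (log scale, y axis) of both genes in the 6 pairs whose genes changed in opposite directions by most, by group (x axis), 1 symbol per library, circles for the minus-strand and triangles for the plus-strand gene. In each panel 1 gene falls and the other rises from ESC to neurons, and in AC114539.1/Nfkb2 the genes start from the same level of 31.7 CPM.

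The balance of a pair, the log2 ratio of the minus-strand to the plus-strand count, was tested within libraries with limma. It differed between groups in 794 of 1375 head-to-head pairs (57.7%), against 62.5% of all 4031 overlapping pairs tested. An edgeR test of the gene-by-group interaction called 588 of the 1375 (42.8%), against 47.3% of all pairs, and 555 were called by both tools. Where a partner is at 0 the ratio moves with the depth of the library, and edgeR's interaction cannot be estimated when a group holds 0 for both genes, so pairs with a silent partner have no reliable balance. The largest changes among pairs with a mean of at least 50 summed counts were, apart from Ccdc107 with its partners at 0, those of Pycard/Gm45205 (11.02, SE 0.77, limma adjusted p = 3.31e-05), Gm26588/Mgll (9.95, SE 1.05, limma adjusted p = 0.000165), Atf5/Il4i1 (−9.78, SE 0.44, limma adjusted p = 6.59e-06) and Myadml2/Myadml2os (9.75, SE 0.74, limma adjusted p = 4.37e-05). The first 3 were also called by the edgeR interaction. Mgll, which degrades the endocannabinoid 2-arachidonoylglycerol, had counts of 16, 10 and 14 in ESC and 3, 0 and 0 in neurons, and Gm26588 had 0, 1 and 3 and then 91, 91 and 106, a ratio of 121 (interval 46.8 to 448). Myadml2os had counts of 890, 1058 and 759 in ESC and 0, 0 and 1 in neurons (ratio 1609, interval 289 to 63581) with Myadml2 at 0, 0 and 1 in ESC and 0 in neurons, so that its balance rests on a partner near 0 and was not called by edgeR (adjusted p = 1).

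Counts within a pair were very uneven. Over 708 pairs with at least 20 summed counts in every library, the more abundant gene held a median of 96.8% ± 0.03 of the pair's counts in ESC and 95.2% ± 0.06 in neurons (SD, n = 3 each). There was no overlap between the groups (exact permutation p = 0.1). The same median was 94.5% ± 0.35 and 89.2% ± 0.57 for tail-to-tail and 97.2% ± 0.30 and 97.0% ± 0.29 for nested pairs. Of 945 head-to-head pairs with at least 100 counts over the ESC libraries, 682 (72.2%) had 1 gene with at least 90% of them and 224 had 1 gene with at least 99%. In neurons these were 534 (67.2%) and 172 of 795.

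As assigned in the table, most counts of a pair usually stood on the gene with the provisional name. With the strands exchanged, a count would stem from RNA of the strand opposite the gene it is printed for. It would pass to the partner only where exons are shared, so these percentages would have to be counted anew. The strand setting is not given in the sources used here, and which strand reading holds was not tested. The minus-strand gene mt-Nd6 held 68.3% to 86.3% of mitochondrial mRNA counts in ESC and 32.9% to 36.8% in neurons. In the 968 pairs with exactly 1 Gm or Rik gene, that gene held 87.5%, 87.7% and 87.5% of the summed counts of the ESC libraries and 86.7%, 86.1% and 87.1% of those of the neuron libraries. The difference was −0.93 percentage points (exact permutation p = 0.1). It was −6.03 when pairs with under 50 shared bases were left out, which drops Gm13496/Wdr38, −8.03 in pairs without another opposite-strand partner, and 0.28 in pairs with at least 50 counts in every library (exact permutation p = 0.5). Of 461 such pairs with at least 100 counts in ESC, the Gm or Rik gene held at least 90% in 345 and the other gene in 32; in neurons these were 286 and 21 of 429. Per exonic base the Gm or Rik gene was the higher one in 411 of the 461 pairs (89.2%) in ESC and 398 of the 429 (92.8%) in neurons. In pairs with exactly 1 protein-coding gene, the protein-coding gene held at least 90% in 40 of 547 pairs in ESC and 33 of 491 in neurons, and its partner in 396 and 318. Per exonic base the partner was the higher one in 89.0% and 90.4% of these pairs.

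**Figure D4:**
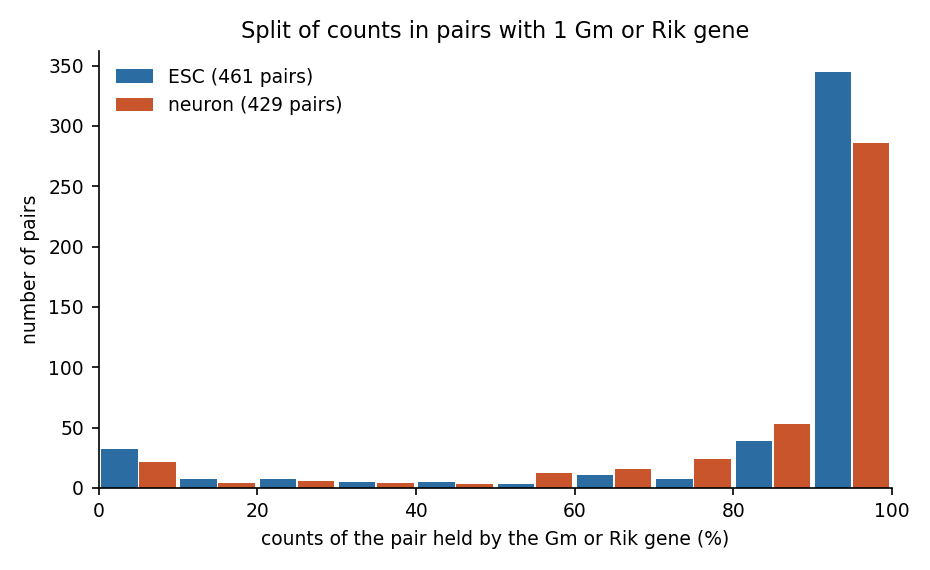
Number of head-to-head pairs (y axis) by the percent of the pair's counts held by its Gm or Rik gene (x axis, classes of 10 percentage points, ESC bar left and neuron bar right in each class), for pairs with exactly 1 such gene and at least 100 summed counts in the group. The class from 90% to 100% holds 345 of 461 pairs in ESC and 286 of 429 in neurons, and the class below 10% holds 32 and 21.

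Further pairs, chosen after their values were seen, had few counts on a well-known gene and many on its partner. With the strands exchanged the large counts would stem from RNA of the well-known gene's strand. They would belong to that gene only over shared exons. Uchl1 encodes an abundant neuronal deubiquitinase; it had counts of 1, 0 and 3 in ESC and 3, 2 and 7 in neurons, while its antisense gene Uchl1os had 668, 402 and 542 and then 1174, 1128 and 1092. Uchl1os rose by 1.84 on the log2 scale (SE 0.11, edgeR adjusted p = 3.66e-18), and Uchl1 had too few counts to be tested. Gnao1, the alpha subunit of the neuronal G protein Go, had 0 in ESC and 22, 14 and 13 in neurons, and 4930488L21Rik opposite it had 1, 3 and 2 and then 1184, 1034 and 921. Gnao1 was at least 8.94-fold higher and 4930488L21Rik had a ratio of 880 (interval 404 to 2400). Hes5, a Notch target of neural progenitors, had 0, 1 and 0 and then 5, 3 and 5, and Gm20421 opposite it 0 and then 256, 303 and 252, at least 151-fold higher (edgeR adjusted p = 9.30e-25). Hnrnpd, an RNA-binding protein of messenger RNA decay, had counts of 86, 80 and 70 in ESC and 8, 6 and 4 in neurons, and Gm17092 opposite it 11144, 13351 and 9207 and then 41, 39 and 37. Both fell, with changes of −2.95 (SE 0.31, edgeR adjusted p = 6.52e-11) and −7.44 (SE 0.22, edgeR adjusted p = 3.42e-12) on the log2 scale.

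The split was not limited to provisional names, since pairs of protein-coding genes showed it too, among them 3 also chosen after their values were seen. The splicing factor gene Srsf2 had counts of 70, 61 and 53 in ESC and 18, 12 and 8 in neurons, and the transporter-family gene Mfsd11 opposite it 10341, 7929 and 8865 and then 532, 471 and 432. Cox4i1, a subunit of respiratory complex IV, had counts of 26, 11 and 38 in ESC and 0, 0 and 1 in neurons, and Emc8, a subunit of the endoplasmic reticulum membrane protein complex, had 8895, 6372 and 7533 and then 627, 542 and 505. Emc8 fell by 3.01 on the log2 scale (SE 0.10, edgeR adjusted p = 8.90e-27). Jmjd6 had counts of 2, 6 and 10 in ESC and 3, 10 and 5 in neurons, with overlap between the groups, while Mettl23, whose window is printed above with that of Jmjd6, had 6769, 6057 and 6007 and then 353, 352 and 280. Mettl23 fell by 3.51 (SE 0.10, edgeR adjusted p = 8.76e-28). The span of Mettl23 on chromosome 11 covers that of Srsf2, and each of these 2 genes has 2 opposite-strand partners. The pairs Jmjd6/Mettl23 and Srsf2/Mfsd11 are thus not separate loci, and the counts of Mettl23 cannot be set against Jmjd6 alone.

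Among 20 DNA repair and replication genes, 3 were head-to-head members, and of the 2 tested 1 was lower in neurons. In the whole list 4 of 6 tested were lower and 0 higher. Of all tested genes 38.6% were lower and 47% higher, and so few list genes cannot be told from these shares. Pcna, the sliding clamp of DNA polymerases, had counts of 75, 35 and 45 in ESC and 2, 4 and 4 in neurons, and AV099323, sharing 499 bases with it, 11600, 8703 and 9660 and then 243, 248 and 203. They changed by −3.15 (SE 0.40, edgeR adjusted p = 4.22e-09) and −4.68 (SE 0.11, edgeR adjusted p = 1.98e-31) on the log2 scale. Mcm7 had counts of 192, 118 and 150 in ESC and 104, 69 and 68 in neurons, and Ap4m1 988, 740 and 799 and then 128, 119 and 102. At 131 ± 15.6 and 116 ± 17.5 CPM (SD, n = 3 each) the groups overlapped for Mcm7, with a log2 change of −0.18 (SE 0.17, edgeR adjusted p = 0.32) that became 0.55 with total counts (edgeR adjusted p = 0.00341). Ap4m1 fell by 2.10 (SE 0.12, edgeR adjusted p = 1.56e-18), and the balance of the pair moved towards Mcm7 by 1.92 (SE 0.27, limma adjusted p = 0.000550).

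Of 22 neural transcription factor genes, 8 were head-to-head members and 9 were tested in all, each of the 9 higher in neurons, and 2 of the tested genes were members. Among all tested genes 47% were higher in neurons. Zic4 and Zic1 are zinc-finger genes of the dorsal nervous system that overlap by 60 bases. Zic4 had counts of 0, 1 and 0 in ESC and 32, 22 and 8 in neurons (ratio 104, interval 18.0 to 4185, edgeR adjusted p = 6.77e-10), and Zic1 had 0 and then 5, 2 and 1. The POU-domain gene Pou3f3 had 0 in ESC and 18, 11 and 4 in neurons, and its lncRNA partner Pantr1 had 7, 6 and 3 and then 45, 31 and 38, a rise of 3.55 on the log2 scale (SE 0.35, edgeR adjusted p = 7.77e-12). The members Neurod6, Six3, Otx2 and Emx2 had at most 7 counts in any library, as had their partners with the exception of Emx2os at 9 in neuron replicate 1 and the partner of Neurod6 at 8 in neuron replicate 2. Cx3cr1, the fractalkine receptor of microglia, had counts of 19, 16 and 13 in ESC and 7, 4 and 2 in neurons with its partner Gm33858 at 0 throughout. Its log2 change of −1.12 (SE 0.45, edgeR adjusted p = 0.0206) lost its call with total counts (−0.40, edgeR adjusted p = 0.418), with the filter on a mean of at least 10 counts (−0.76, edgeR adjusted p = 0.135), with DESeq2 (−1.16, DESeq2 adjusted p = 0.0915) and without neuron replicate 3 (−0.88, edgeR adjusted p = 0.111).

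The 6 pairs with the most shared exonic bases among those with both genes tested are described next. That choice favours pairs with counts on both genes, and it leaves out Miat/Gm26953 and Kcna6/Gm26673, described above with 2434 and 2355 shared bases. AI480526 and 4932422M17Rik, lincRNA genes sharing 2700 bases, had 22, 23 and 26 against 228, 181 and 192 counts in ESC, and 24, 21 and 25 against 308, 237 and 259 in neurons. 4932422M17Rik rose by 1.17 on the log2 scale (SE 0.13, edgeR adjusted p = 1.71e-10), while the change of AI480526 (0.72, SE 0.29, edgeR adjusted p = 0.0199) lost its call without a filter (0.56, edgeR adjusted p = 0.133), with DESeq2 (0.71, DESeq2 adjusted p = 0.0777), without ESC replicate 1 (0.49, edgeR adjusted p = 0.159) and without neuron replicate 3 (0.57, edgeR adjusted p = 0.112). Unc45a, a myosin chaperone, and Hddc3 share 2454 bases and had nearly equal counts. Unc45a had 174, 106 and 130 in ESC and 146, 114 and 112 in neurons, and Hddc3 130, 121 and 131 and then 145, 128 and 136. Unc45a held 51.2% ± 5.4 of the counts in ESC and 47.5% ± 2.5 in neurons, without a called change in balance (−0.22, SE 0.30, limma adjusted p = 0.547). Per kilobase of exon Hddc3 stood at 29.4 CPM in ESC and Unc45a at 12.6.

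Plxna2, a semaphorin receptor that guides axons, had 0 counts in ESC and 45, 36 and 44 in neurons, at least 23.2-fold higher (edgeR adjusted p = 4.88e-15). Its partner ENSMUSG00000121086.1 lies almost wholly over its first exons with 2650 shared bases and had 20, 6 and 8 and then 460, 328 and 392. Arhgef26, a guanine nucleotide exchange factor for RhoG, had 0, 1 and 1 and then 40, 28 and 21, and 9330121J05Rik opposite it 9, 27 and 5 and then 308, 289 and 243 (edgeR adjusted p = 1.15e-12 and 1.73e-08). The ratio for Arhgef26 was 74.9 (interval 20.1 to 628). Serinc4 had counts of 1270, 1014 and 1085 in ESC and 376, 337 and 284 in neurons, a change of −1.01 on the log2 scale (SE 0.11, edgeR adjusted p = 4.14e-11). Serf2 opposite it, sharing 2296 bases, had 25, 7 and 15 and then 14, 3 and 14, with overlapping groups (0.16, SE 0.43, edgeR adjusted p = 0.729).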

How the data were processed

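Poly(A) RNA libraries of 3 ESC and 3 neuron samples were compared; groups and replicate numbers came from the titles. The authors deposited raw counts per gene, with exon positions, strand and a gene length column also made by the authors, which equalled the merged exon length for 100% of genes. The submitters' processing notes name cutadapt, STAR and RSEM, without versions, and the builds GRCm39 and mm39; the counter's strand and multi-mapping settings are not given in the sources used here. Symbols and types came by identifier from GENCODE M21 and were found for 52029 of 57010 genes; 131 genes sharing a symbol kept their identifier.

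Exons were merged per gene, and all opposite-strand pairs sharing at least 1 exonic base were classed by position. The whole table was tested with edgeR (filterByExpr minimum 10, TMM, robust quasi-likelihood fit, no covariate) and p-values were adjusted by Benjamini-Hochberg over the 7150 tested genes, with 0.05 as the threshold. CPM used the normalised total of tested genes. The standard error is the log2 fold change over the root of the F statistic. Balance was tested with limma on log2 ratios of counts plus 0.5, over all overlapping pairs with at least 10 summed counts in at least 3 libraries. Single values per library had exact two-sided permutation tests. Alternatives were other scaling, filters, pseudocounts, minimum overlaps and tools, the replicate block and leaving out each library. On simulated counts for neurons against ESC, edgeR called 96% of 200 genes changed 4-fold among 7150, and 8.57% of its calls were unchanged genes. For the balance of the 1536 pairs with both genes tested, limma called 81.3% of 91 changed pairs, with 5.13% of calls unchanged. Far fewer genes changed in the simulation than the 85.6% called in the data, so it gives no error rates for such a share. The rest of the 4031 pairs tested for balance were not scored.

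The pairs, lists and tests were chosen with earlier results of these data known. Named are both genes of the 6 pairs with the highest mean summed CPM in each group, the pairs of the 6 members that rose most and the 6 that fell most (called, average log2 CPM of at least 5, groups not overlapping), the 6 opposite pairs with the largest smaller change, the 6 with the largest change in balance, the 6 with the most shared bases among pairs with both genes tested, and tested members of the lists of markers, repair genes and neural factors. Others are said to be chosen after their values were seen. A few named genes are not reported here. Promoter windows are from RefSeq (GRCm38.p6). Work was done in R 4.3.3 (with DESeq2 1.42.0, limma 3.58.1 and edgeR 4.0.16) and in Python 3.11.15 (with matplotlib 3.10.9, numpy 2.4.6 and pandas 2.3.3).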

Additional observations from a re-analysis of the deposited data

How the results depend on the processing

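Without a filter on low counts 11762 of 28820 genes differed, and 482 head-to-head pairs had both genes called in the same direction. The number of pairs with a changed balance was 481 when at least 10 summed counts were required in all 6 libraries and 421 in pairs without another opposite-strand partner, both of which test fewer pairs. Requiring at least 10 counts of each gene over the libraries, chosen after seeing the data, gave 614. The difference in the share held by Gm or Rik genes reversed to 0.28 percentage points (exact permutation p = 0.5) with at least 50 counts in every library; the cause was not tested. The balance of Gm13496/Wdr38 was 2.44 with limma and reversed to −0.23 with the edgeR interaction. Leaving out 1 library at a time gave 5430 to 7353 genes, 1366 to 1639 members, 183 to 294 same-direction and 73 to 113 opposite pairs, 606 to 655 pairs with a changed balance, share differences of −13.2 to −12.6 percentage points, changes in the median of the more abundant gene of −1.67 to −1.61 and in the Gm or Rik share of −1.17 to −0.65. The last had exact permutation p = 0.2 without any 1 of the ESC libraries, where 2 against 3 libraries can give 0.1. Replicate numbers did not pair the samples: deviations of same-numbered libraries had correlations of 0.019, 0.0039 and −0.022. A fit with the replicate block gave 6088 genes, 1484 members, 219 same-direction and 91 opposite pairs, and 769 pairs with a changed balance. DESeq2's Wald test gave 5774 genes, 1409 members, 200 and 71 pairs. With total counts the share of calls higher in neurons rose from 40.6% to 52.7% for members and from 54.9% to 65.5% for all genes. Of 900 alternative values of named genes 889 kept their direction and call, as did 448 of 478 values of named balances. The 18 lost calls of balances were lost under the edgeR interaction, except for Cx3cr1/Gm33858, which also lost its call without neuron replicate 2 or 3. Depth limits partners with few counts: 1821 members could not be tested.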
